A study of Canis lupus familiaris with 17 samples.

Results

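GATA3-high T cells were a rare group of canine blood lymphocytes, 505 of 45717 T cells and of 84345 cells kept in all. They came from a single-cell RNA sequencing survey of the blood leukocytes of 17 client-owned dogs, 7 clinically healthy and 10 with osteosarcoma (OS), a malignant bone tumor. All dogs were recorded as wild type. The healthy dogs were middle-aged. The dogs with OS carried their primary tumor and had received no treatment, and the study classed OS dogs 1, 2, 4, 5 and 10 as old. Leukocytes were taken from whole blood on a Ficoll gradient, red cells were lysed, and 1 droplet library was made per dog, so a dog was 1 replicate. A T cell was a barcode with at least 1 unique molecular identifier (UMI, 1 counted mRNA molecule) of CD3E and none of the B cell gene MS4A1. A T cell was a GATA3-high T cell if it also had at least 1 UMI of GATA3 and at least 1 UMI of at least 3 of 8 genes, namely PARD3B, RHEX, IL17RB, CDH4, FAT1, TOX2, ADARB1 and ZNF683. The levels of these 11 genes therefore chose the cells and are given as a description. The same holds for every comparison of the chosen cells with other T cells, for which no test was run.

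The cells were put forward as gamma-delta T cells. Gamma-delta T cells carry an antigen receptor of a gamma and a delta chain in place of alpha and beta chains, mostly lack the coreceptors CD4 and CD8, and respond without presentation of peptides by classical MHC molecules. GATA3 is the transcription factor that directs T helper cells and innate lymphoid cells toward type 2 immunity. Cells of that kind are known to respond to IL-25, whose receptor contains IL17RB, and to TSLP, whose receptor contains CRLF2. The constant region genes of the delta, gamma, alpha and beta chains (TRDC, TRGC1, TRGC2, TRAC, TRBC1 and TRBC2) had no entry under these names in the gene table and were not analysed here. The label gamma-delta could therefore not be checked here on the receptor's own constant regions. The paper aligned its healthy dogs to a second dog genome to measure TRDC, and named a gamma-delta T cell cluster by GATA3 and TRDC. The paper's marker list of gamma-delta T cells, defined in its healthy dogs, holds GATA3 and the whole set of genes that the rule counted. The rule is therefore not independent of the paper's label, and high levels of these genes are no separate evidence for it. Whether the cells chosen here are those of the paper's cluster was not tested, and they are called GATA3-high T cells below.

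Libraries held between 1239 and 7070 kept cells per dog, with a median depth per cell of 3674.5 to 6718 UMIs. GATA3-high T cells had a median of 6598 UMIs, against 5533 in the other T cells. Of kept barcode sequences 922 occurred in more than 1 library. None was shared between the GATA3-high T cells of 2 dogs, and 20 of those of GATA3-high T cells were also kept as another cell in another library. Of 2130 B cells, 0 carried GATA3 with at least 3 of the 8 genes, which allows a share of up to 0.141%. Of 15807 myeloid cells, which were sequenced more deeply (median 11103 UMIs), 3 did (0.0190%, 95% exact binomial interval 0.00391 to 0.0555%). In T cells the share was 1.10% (interval 1.01 to 1.21%). These intervals and limits cover counting error only. The share in T cells also depended on depth and on the rule. It was 0.304% with each cell thinned to 2000 UMIs and 0.640% at 4000 UMIs, shallower cells left out. With at least 2 of the 8 genes it was 2.97%, and with at least 4 it was 0.588%.

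Among the genes of the rule, GATA3 was present at a mean of 4.30 UMIs per GATA3-high T cell, against 0.573 UMIs per other T cell. IL17RB was detected in 324 of the 505 cells (64.2%) and in 1.78% of other T cells. RHEX, which encodes an adaptor of erythropoietin receptor signalling, was detected in 59.0% against 0.246%. CDH4 and FAT1 encode a classical and an atypical cadherin. CDH4 was detected in 54.5% and FAT1 in 47.1% of the GATA3-high T cells. ADARB1, which encodes an RNA-editing adenosine deaminase, was detected in 50.7%, and PARD3B, a member of the cell polarity family, in 42.4%. ZNF683 (Hobit, a transcription factor of tissue-resident lymphocytes) was detected in 41.4%, and TOX2, a nuclear HMG-box protein, in 34.1%. No gene of the 8 was detected in all cells. The pair found together most often was RHEX with IL17RB, in 225 cells.

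The rule was a threshold on a graded quantity. Of the T cells with GATA3, 10653 had none of the 8 genes, 3704 had 1, 851 had 2, 236 had 3, 129 had 4, 87 had 5, 45 had 6, 7 had 7 and 1 had 8. Cells just outside the threshold (2 genes) had a mean of 2.68 GATA3 UMIs, and those just inside it (3 genes) a mean of 3.38, while cells with 6 genes had 6.76. Cells of the 2 steps were also similar in depth, with medians of 7493 and 6858.5 UMIs. Genes that had no part in the rule differed along the same scale. CRLF2 was detected in 15.3% of cells with 2 genes, in 39.8% with 3, in 72.1% with 4 and in 90.8% with 5. CD4 was detected in 30.1% of cells with 2 genes, in 15.2% with 3, in 10.1% with 4 and in 4.60% with 5. After each cell was thinned to 2000 UMIs, CRLF2 was detected in 6.58%, 19.5%, 48.1% and 59.8% of the same 4 groups, and CD4 in 13.8%, 6.78%, 4.65% and 1.15%. The order was therefore the same at equal depth.

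**Figure D1:**
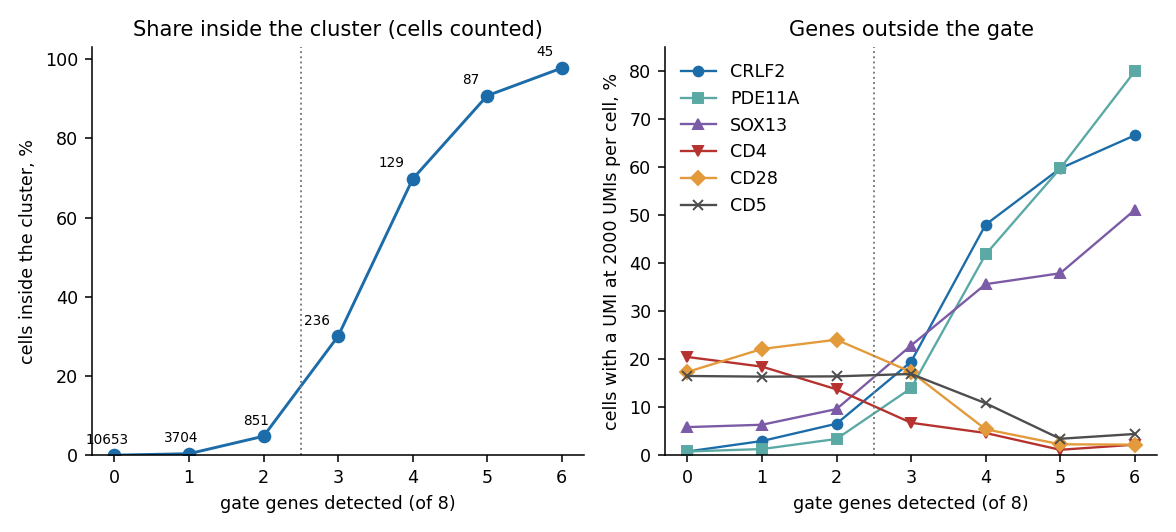
T cells with GATA3 grouped by how many of the 8 gate genes had a UMI (x axis, 0 to 6; the dotted line marks the threshold of the rule). Left, the percentage of cells inside the cluster described in the text, with the number of cells at each point, rising from 4.82% at 2 genes to 97.8% at 6; right, the percentage of cells with a UMI of 6 genes that had no part in the rule, each cell thinned to 2000 UMIs, where CRLF2, PDE11A and SOX13 go up and CD4, CD28 and CD5 go down beyond the threshold.

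To see whether the cells stood together without the genes that chose them, all 45717 T cells were clustered with the 11 rule genes left out. One cluster of 381 cells out of 28 clusters held 292 of the 505 GATA3-high T cells (57.8%), and 76.6% of its cells fulfilled the rule. The highest such share in any other cluster was 10.6%. The same 292 cells were together at Leiden resolutions of 0.5 and 2.0. Without centring of genes within dogs the cluster held 285 GATA3-high T cells, 284 of them the same. Of the cells with 3 genes 30.1% lay inside the cluster, of those with 4 69.8%, of those with 5 90.8% and of those with 6 97.8%. The 10 leading genes of the cluster were RHEX, PARD3B, PDE11A, CRLF2, IL17RB, VSTM4, PSD3, CDH4, SOX13 and TOX2, of which 5 were rule genes. The clustering had not used these 5, but most cells of the cluster had met the rule. Their place in this order is therefore in part set by the rule. The remaining 213 GATA3-high T cells were spread over 16 other clusters, and are described after those inside the cluster.

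The 89 cells of the cluster that missed the rule were shallower, with a median of 4680 UMIs against 5610 for the 292 cells that met it. RHEX was detected in 76.4% of them and GATA3 in 66.3%. Neither CD4 nor CD28 was detected in any of them (0 of 89), and SOX13 was detected in 67.4%. In the 292 cells SOX13 was detected in 75.7%, CD4 in 2.05% and CD28 in 4.45%. Other leading genes were detected less often in the 89 cells than in the 292: CRLF2 in 47.2% against 84.6% (36.0% against 57.5% at 2000 UMIs per cell), PDE11A in 50.6% against 78.4%, and PARD3B, a rule gene, in 16.9% against 63.0%.

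Gene levels were compared within dogs as the log2 ratio of (CPM + 10), where CPM is the count scaled to a library of 1e6 UMIs, between the GATA3-high T cells and the other T cells of the same dog. A gene was counted as higher or lower where the median ratio over dogs was past 1 on the log2 scale and the sign was the same in every dog. All GATA3-high T cells were compared in 13 dogs with at least 10 of them, those inside the cluster in 7 dogs (healthy dogs 2, 4 and 5, OS dogs 2, 5, 6 and 7) and those outside it in 5 dogs (healthy dog 4, OS dogs 1, 2, 7 and 8). Rule genes were left out of all counts of genes. Over all GATA3-high T cells, 60 of 6222 genes (0.964%) counted as higher and 47 (0.755%) as lower. Inside the cluster the counts were 162 of 6287 genes (2.58%) and 238 (3.79%), and outside it 70 of 6207 (1.13%) and 64 (1.03%). The 3 sets of dogs differ, and fewer dogs make the rule easier to meet, so these counts are not compared with each other.

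**Figure D2:**
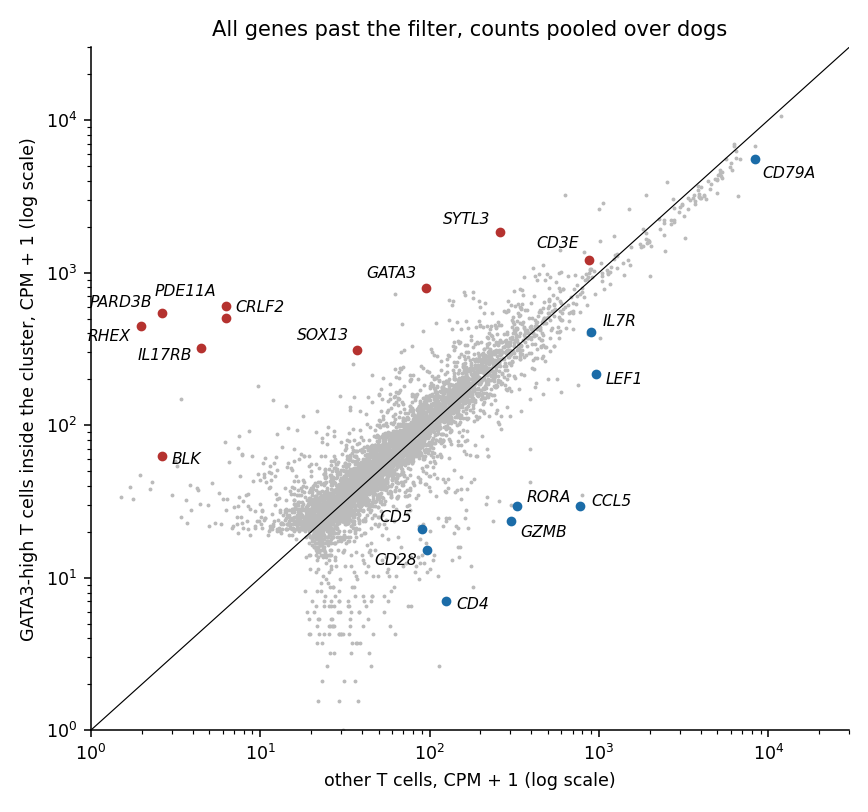
CPM of every named gene past the low-count filter in the GATA3-high T cells inside the cluster (y axis) and in the other T cells (x axis), counts pooled over dogs, log scales, diagonal at equality. Labelled genes above the diagonal are red and below it blue: CRLF2 at 506 against 5.27, PDE11A at 606 against 5.28, CD4 at 6.03 against 125, and GZMB at 22.5 against 302.

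Receptor and signalling genes of T cells were the first group examined. CD3E and CD3D, signalling chains of the T cell receptor, were present inside the cluster at a median over dogs of 1218 and 661 CPM, against 923 and 398 in other T cells. CD4 was detected in 6 of 292 cells (2.05%). Its level inside the cluster was 0 to 19.0 CPM (median 6.78), below all 7 values in other T cells (76.2 to 207). CD8A was at 0 to 28.4 CPM (median 3.79) against 22.7 to 83.3. CD8B had no entry in the gene table and was not analysed here. Of 12 genes of the T cell receptor and CD3 list that passed the low-count filter, 1 counted as higher (CD7) and 5 as lower inside the cluster. The latter were CD5 and CD6, inhibitory surface receptors, CD2, an adhesion molecule, CD28, the main costimulatory receptor, and TRAT1, a transmembrane adaptor that stabilises the receptor complex.

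CD5 was at 7.78 to 22.8 CPM over the 7 dogs (median 18.3), against 72.5 to 179 CPM in their other T cells, and the ranges did not overlap. CD28 was at 0 to 41.7 CPM (median 13.2) against 76.0 to 208 CPM, again without overlap. TRAT1 had the median log2 ratio of largest size in this list, -3.17. Signalling genes shared by T cells of any receptor were closer to other T cells, with median log2 ratios of 0.27 for ZAP70 and 0.49 for LCP2.

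Variable segments of the receptor chains that the table does list were then summed, a choice made after their values were seen. The 6 beta chain segments (TRBV) had 0 UMIs among the 1822947 UMIs of the GATA3-high T cells inside the cluster, which allows up to 1.65 CPM. They had 1821 UMIs in other T cells (6.65 CPM), 8 UMIs in the GATA3-high T cells outside the cluster (4.27 CPM), and 0.152 CPM in B cells. The 5 alpha chain segments (TRAV), 1 of which is shared with the delta chain, had 6 UMIs inside the cluster (3.29 CPM), 7 outside it (3.74 CPM) and 4.78 CPM in other T cells. TRDV3, the delta segment listed, had 0 UMIs in GATA3-high T cells of either kind and 10 in all other T cells. With so few UMIs the receptor of a cell cannot be read from these segments.

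Of 9 genes of the gamma-delta and innate-like lineage list past the filter inside the cluster, 3 counted as higher and 3 as lower. SOX13, a transcription factor of the gamma-delta lineage in mice, was at 156 to 451 CPM inside the cluster (median 304), against 28.4 to 54.2 CPM in other T cells. All 7 dogs lay above every value of the other T cells. BLK, a Src-family kinase of B cells that murine gamma-delta T cells producing IL-17 also express, was at 38.7 to 145 CPM (median 54.9) against 0.731 to 4.21. MAF, a transcription factor of several innate-like and helper T cells, was at 558 to 737 CPM (median 677) against 80.3 to 157 CPM.

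RORA, IL18R1 and KLRB1 counted as lower inside the cluster. RORA, a nuclear receptor of innate lymphoid and IL-17 lineages, was at 0 to 51.6 CPM (median 22.1) against 203 to 592 CPM. KLRB1 (CD161), carried by many innate-like T cells, was at 0 to 23.2 CPM against 55.9 to 298. No UMI of IL17A, IL17F or IL22 was found in any GATA3-high T cell, and other T cells held at most 0.106 CPM of each of them.

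In the type 2 immunity list, CRLF2 was the 1 gene of 6 past the filter that counted as higher. Inside the cluster its level was 296 CPM in OS dog 2, 434 in OS dog 6, 448 in OS dog 7, 466.3 in healthy dog 2, 511 in healthy dog 5, 607 in OS dog 5 and 650 in healthy dog 4. In other T cells of these dogs it was 2.56 to 13.1 CPM, and the median log2 ratio was 4.84. OS dogs 2, 6 and 7 thus lay below the healthy dogs, and OS dog 5 lay between healthy dogs 5 and 4. IL4R, the shared receptor chain of IL-4 and IL-13, had a median log2 ratio of 0.57 and counted as neither. The type 2 cytokine genes were almost undetected, with 2 UMIs of IL5 and none of IL4, IL9, IL10, IL13 or AREG inside the cluster, and 3 UMIs of IL4 and 1 of IL13 outside it. Among other receptors of this kind, IL1RL1 (the IL-33 receptor) had 1 UMI inside the cluster and 16 outside it, and PTGDR2 (CRTH2) had 2 and 0.

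IL17RB itself, a rule gene, ranged from 171 to 627 CPM inside the cluster (median 231), against 2.06 to 7.86 CPM in other T cells. Of 5 genes of the IL-17 receptor and signalling list past the filter, TRAF3IP2 counted as higher, at 39.6 to 137 CPM (median 90.9) against 9.24 to 20.6 CPM. It encodes Act1, the adaptor through which IL-17 family receptors signal. IL17RA, the chain that IL17RB pairs with, had a median log2 ratio of -0.28.

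Outside all lists and rule genes, and among genes higher in every one of the 13 dogs, the 12 with the highest median ratio were PDE11A, PSD3, SYTL3, CMA1, RNF220, MAML3, AOPEP, SPECC1, CYTH3, CLINT1, GLYAT and GALNT10. PDE11A, a phosphodiesterase that degrades cAMP and cGMP, was at 55.0 to 796 CPM in GATA3-high T cells (median 236), against a median of 5.43 CPM in other T cells (log2 ratio 3.88, range 2.32 to 5.75). PSD3, an exchange factor for the small GTPase ARF6, had a log2 ratio of 2.58, and CYTH3, another ARF exchange factor, of 1.65. SYTL3, a synaptotagmin-like protein of vesicle transport, had 2.26, and CMA1, which encodes the protease chymase best known from mast cells, 1.97. RNF220, an E3 ubiquitin ligase, had 1.83, and MAML3, a coactivator of Notch signalling, 1.80. The last 5 besides CYTH3 lay between 1.59 and 1.75. All 12 were higher in 13 of 13 dogs. RNF220 and CMA1 are also in the paper's marker list of Th2-like (type 2 helper) CD4 T cells. VSTM4 had a median log2 ratio of 2.62 and was left out of the 12 because it was not higher in OS dog 4 (-0.11).

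Outside the lists, among genes lower in every dog, the 8 with the lowest median ratio were CD38, PLCB1, RGS10, ZNF536, MCTP2, TSHZ2, KANK1 and S100P, between -2.43 and -1.66. CD38, an ectoenzyme of activated lymphocytes, was at 0 to 41.2 CPM (median 10.9), below every value of the other T cells (43.0 to 151 CPM). PLCB1 encodes a phospholipase C that acts downstream of G proteins, and RGS10 a regulator of G protein signalling. PLCB1 had a median of 41.2 CPM against 260, and RGS10 of 18.5 against 163. Against CD4-positive T cells alone the median log2 ratio of PLCB1 was -0.75 and that of MCTP2 -0.64. Over all alternatives the weakest ratio was -0.063 for TSHZ2, -0.54 for MCTP2, -0.55 for S100P and -0.59 for ZNF536 and KANK1. For CD38 it was -1.18 and for RGS10 -1.21.

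Cytotoxic genes were lower than in the pool of all other T cells, which includes cytotoxic CD8A-positive cells. Inside the cluster 13 of 15 genes past the filter counted as lower and 1, the cathepsin gene CTSW, as higher (213 CPM pooled over dogs against 76.2). GZMB, which encodes granzyme B, had 0 CPM in 5 of 7 dogs, 12.9 CPM in healthy dog 4 and 31.9 CPM in healthy dog 5, against 102 to 508 CPM in the other T cells. CCL5, a chemokine of effector T cells, was at 0 to 34.4 CPM against 84.8 to 982. The list as a whole had a median log2 ratio of -2.67, beside 0.03 over all 6287 genes. Against CD4-positive T cells alone the difference was smaller in each cytotoxic gene recomputed, and GZMK was the lowest of them (-2.57 against all other T cells, -1.48 against the CD4-positive cells). Over all GATA3-high T cells the median log2 ratio to the CD4-positive cells was -0.024 for GZMA, -0.17 for NCR3, -0.24 for FASLG and -0.52 for GZMB, and -0.10 for KLRB1 of the innate-like list.

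Genes of naive and memory T cells were lower as well. Of 11 past the filter, 6 counted as lower inside the cluster, among them CCR7, a homing receptor for lymph nodes, LEF1 and SATB1, nuclear factors of naive T cells, IL7R and LTB. CCR7 was at 0 to 33.6 CPM against 148 to 208. LEF1 was at 82.3 to 339 CPM (median 262) against 741 to 2157 CPM. TCF7 and BACH2, which mark naive and stem-like T cells, had median log2 ratios of 0.17 and 0.60 and counted as neither.

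In the regulatory and checkpoint list, TNFRSF18 (GITR) and LGALS3 (galectin-3) counted as higher and CTLA4, ICOS and TOX as lower, out of 7 genes past the filter. FOXP3 had 0 UMIs inside the cluster. Of 17 transcription factors of T cells 1 counted as higher (ZEB1, median log2 ratio 1.03) and 1 as lower (ZEB2, -1.48). Among 10 genes of TGF-beta signalling 2 were lower (SMAD7 and LTBP1). None of the 4 polarity and adhesion genes, 6 interferon-stimulated genes or 5 immediate early and stress genes past the filter was counted, and no cell cycle gene passed the filter. MKI67 and TOP2A, genes of dividing cells, had 1 UMI each inside the cluster, and 38 and 42 UMIs outside it.

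**Figure D3:**
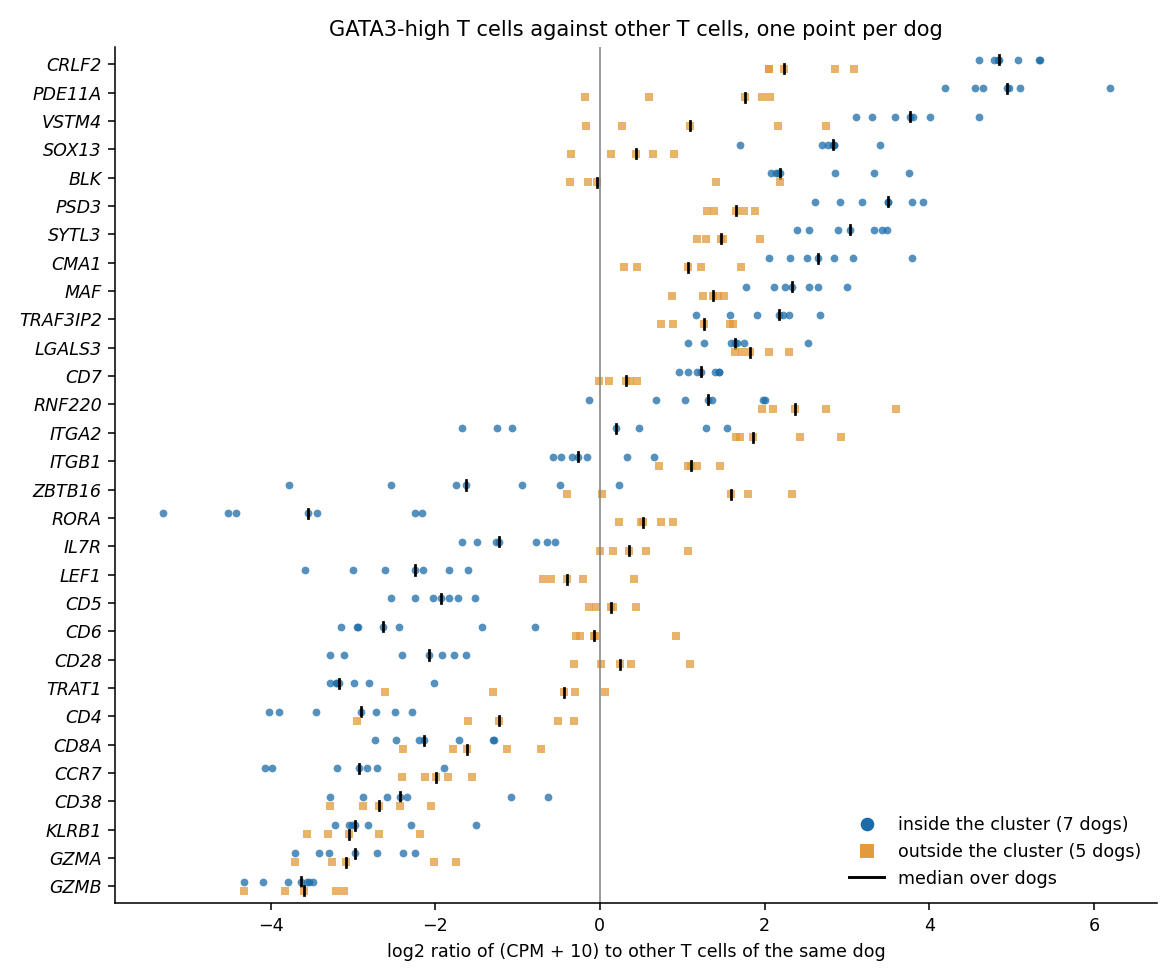
Log2 ratio of (CPM + 10) to the other T cells of the same dog (x axis) for 30 genes (y axis), with 1 point per dog for the GATA3-high T cells inside the cluster (blue, 7 dogs) and outside it (orange, 5 dogs) and a black tick at each median. CRLF2 and MAF lie above 0 in every dog in both; SOX13 and BLK are high inside the cluster, with medians of 0.44 and -0.04 outside it; RORA, CD5 and CD28 lie below 0 in every dog inside the cluster, with medians of 0.52, 0.13 and 0.25 outside it; GZMA, GZMB, KLRB1, CD38 and CCR7 lie below 0 in every dog in both.

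The cluster was built on the variable genes of these same cells, so all differences between the cells inside and outside it are descriptions. The 213 GATA3-high T cells outside the cluster were deeper, with a median of 8440 UMIs against 5610 inside it. They had RHEX and PARD3B less often. RHEX was detected in 10.8% of them and PARD3B in 14.1%, against 94.2% and 63.0% inside the cluster. FAT1, ADARB1, CDH4 and ZNF683 were detected in 54.9%, 55.9%, 59.2% and 54.5%, against 41.4%, 46.9%, 51.0% and 31.8% inside the cluster. These shares are not matched for depth. A cell without RHEX and PARD3B could meet the rule only through other rule genes. The shares and levels of those genes outside the cluster are therefore in part set by the rule. Scaled to depth, the median level over dogs outside and inside the cluster was 78.5 and 81.3 CPM for FAT1, 97.6 and 123 CPM for ADARB1, 132 and 159 CPM for CDH4, and 61.8 and 54.5 CPM for ZNF683. Mean GATA3 was 3.45 UMIs per cell outside the cluster and 4.93 inside it.

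Coreceptors and costimulatory receptors were nearer to the level of other T cells outside the cluster than inside it. CD4 was detected in 22.5% of them, and in 33.0% of other T cells (10.3% and 17.2% at 2000 UMIs per cell). CD28 was detected in 54.5% and CD5 in 49.3%, against 4.45% and 10.3% inside the cluster. At 2000 UMIs per cell the shares outside and inside were 21.1% and 2.05% for CD28, and 22.1% and 4.11% for CD5. CD28 was at 206 CPM in OS dog 1, 112 in OS dog 2, 87.7 in OS dog 7, 72.8 in OS dog 8 and 115 in healthy dog 4. None of the 13 T cell receptor and CD3 genes past the filter was counted outside the cluster.

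PDE11A was detected in 57.9% of the cells inside the cluster and in 5.63% of those outside it at 2000 UMIs per cell. Outside the cluster its level was 8.68 CPM in OS dog 1, 53.3 in OS dog 2, 43.9 in OS dog 7, 6.62 in OS dog 8 and 61.8 in healthy dog 4. SOX13 was at 26.5 to 65.8 CPM there, which overlaps the 28.4 to 44.6 CPM of other T cells. CRLF2 was at 42.1 to 185 CPM outside the cluster, above every value of the other T cells (2.56 to 13.1) and below every value inside it (296 to 650).

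RNF220 and 2 integrin chains counted as higher outside the cluster. RNF220 was at 288 to 786 CPM (median 362) against 43.6 to 109 in other T cells, with a median log2 ratio of 2.37. Inside the cluster its median log2 ratio was 1.32 and it was higher in 6 of 7 dogs, so that it missed the count through healthy dog 2 alone (-0.13). ITGA2, a collagen-binding integrin, was at 81.4 to 245 CPM (median 121) against 19.1 to 30.1. ITGB1, its beta chain, was at 396 to 811 CPM against 178 to 294 CPM. RORA was at 354 to 907 CPM in them, with a median log2 ratio of 0.52, and IL7R at 919 to 1506 CPM, with 0.36. The cluster that held the next most of the 505 cells, 90 among its 2869, was led by ITGA2, RBP4 and RNF220. Among its leading genes ITGA2, RNF220, CCDC3, LGALS3 and S100A2 are in the paper's marker list of Th2-like CD4 T cells. Over that cluster, most of whose cells did not meet the rule, RNF220 was at 351 CPM, ITGA2 at 179 and LGALS3 at 765. The first 2 lay within, and LGALS3 above, the range over dogs of the GATA3-high T cells outside the cluster described first. A further 34 lay in a cluster of 320 cells led by PLXDC2, ATRNL1, CDH4, KHDRBS3 and ZBTB16, the last of which encodes PLZF, a transcription factor of innate-like T cells. CD4 was detected in 5.6% and CD8A in 4.4% of the cells of this cluster, most of which did not meet the rule. In the cluster of 2869 cells the shares were 20.5% and 3.9%.

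Cytotoxic genes were lower than in all other T cells in both kinds. Outside the cluster 13 of 15 cytotoxic genes past the filter counted as lower and none as higher, with a median log2 ratio of -2.41 over the list. MAF, CRLF2, TRAF3IP2 and LGALS3 counted as higher in both kinds, and CCR7, KLRB1, CD4 and CD8A as lower. Of 9 genes of the gamma-delta and innate-like lineage list past the filter outside the cluster, MAF and TGFBR3 counted as higher and KLRB1 as lower. TGFBR3, which is in the paper's marker list of gamma-delta T cells and not in the rule, did not count as higher inside the cluster. The GATA3-high T cells thus fell into a compact cluster and a scattered remainder. The former had high RHEX, PARD3B, PDE11A, CRLF2 and SOX13 with little CD4, CD28 and CD5. The latter, taken as a whole, had higher RNF220, ITGA2 and ITGB1, with CD28 and CD5 near the level of other T cells. The remainder was mixed. Little CD4 was also seen in the cluster of 320 cells (5.6%), which held part of it. ZBTB16 in the remainder ranged over dogs from 57.7 CPM in healthy dog 4 to 680 CPM in OS dog 7. RNF220 and ITGA2, like GATA3, LGALS3 and CMA1, are in the paper's marker list of Th2-like CD4 T cells. The medians over dogs of RNF220, ITGA2 and LGALS3 were higher outside the cluster than inside it. Those of CMA1 (137 CPM outside, 459 inside) and GATA3 (357 and 733 CPM) went the other way. Other genes of that list were not compared in this way. Whether cells of the remainder are Th2-like CD4 T cells was not tested.

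Markers of B, natural killer and myeloid cells had lower medians inside the cluster than in other T cells. Of 8 B cell genes (CD79A left out), PAX5 and EBF1 had 0 UMIs in the 7 dogs, and the summed level of the list was 0 to 39.6 CPM over the 7 dogs, against 40.0 to 86.1 CPM in other T cells. CD79A stood at 5557 CPM inside the cluster and 8299 CPM in other T cells, so its counts did not mark B cells in this gene table. Of 7 natural killer cell genes, NCR1 and KLRF1 had 0 UMIs, and the sum was 0 to 45.5 CPM against 33.1 to 121. Of 6 basophil and eosinophil genes, GATA2, CA8 and TGM2 were at 0 and the sum inside the cluster was 9.14 to 118 CPM (median 18.1) against 21.4 to 69.8 (median 34.8), so its highest dog lay above every value of the other T cells. Over all GATA3-high T cells of the 13 dogs this sum was 4.99 to 184 CPM (median 45.1), against a median of 27.9 CPM in other T cells, and its part in the results was not tested.

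The 12 myeloid genes summed to 739 to 1426 CPM inside the cluster and 2847 to 6105 CPM outside it, against 1560 to 5780 and 2304 to 3666 CPM in the respective other T cells. CSF1R, CSF3R, F13A1 and CD68 were at 0 inside the cluster in the 7 dogs. Outside the cluster all 12 genes had UMIs. LYZ stood at 2175 CPM outside the cluster in healthy dog 4 and at 6.62 to 54.8 CPM in the 4 dogs with OS. In OS dog 5, whose cells outside the cluster were too few to be compared, it stood at 1701 CPM over all GATA3-high T cells and at 132 CPM inside the cluster. The cells with the highest Scrublet scores were called doublets, up to a number set in advance per dog, which came to 4.67% of all kept cells. Among them were 39 of the 505 cells (7.72%), 18 in healthy dog 4 and 9 in OS dog 1. Their part in the levels outside the cluster alone was not tested.

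Whether the cells were more or less frequent in dogs with OS was the first comparison of the 2 groups. GATA3-high T cells made up 0.521%, 2.19%, 0.179%, 2.25%, 2.41%, 0.293% and 0.871% of the T cells of healthy dogs 1 to 7. In the 10 dogs with OS the lowest share was 0.149%, the median 1.06% and the highest 1.95%. Healthy dogs fell into 3 dogs above 2% and 4 below 1%, and all values of the dogs with OS lay within the range of the healthy dogs except that of OS dog 9, which was lower. The mean was 1.24% ± 0.996 (SD, n = 7) for the healthy group, against 0.920% ± 0.561 (SD, n = 10) for the OS group. The medians, 0.871% for the healthy group and 1.06% for the OS group, had the opposite order. The shift was -0.20 percentage points (95% interval -1.26 to 0.742), with p = 0.669 by an exact Wilcoxon test (two-sided, like all tests here), adjusted over both denominators to 0.887.

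As a share of all kept cells the means were 0.715% ± 0.646 (SD, n = 7) and 0.492% ± 0.301 (SD, n = 10), with a shift of -0.074 points (interval -0.922 to 0.344) and an exact Wilcoxon p = 0.887, adjusted 0.887. Here too the medians had the opposite order, 0.315% for the healthy group and 0.463% for the OS group. A difference between the groups was thus not detected, and the intervals leave room for a difference of up to 1.26 points of T cells in one direction and 0.742 in the other. Without the 5 dogs classed as old the difference in means was -0.393 points of T cells (exact Wilcoxon p = 0.639). Counts were low in several dogs. Healthy dog 3 had 4 of the cells among 2232 T cells (95% exact binomial interval 0.0489 to 0.458%) and OS dog 3 had 4 among 794 (0.137 to 1.29%).

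**Figure D4:**
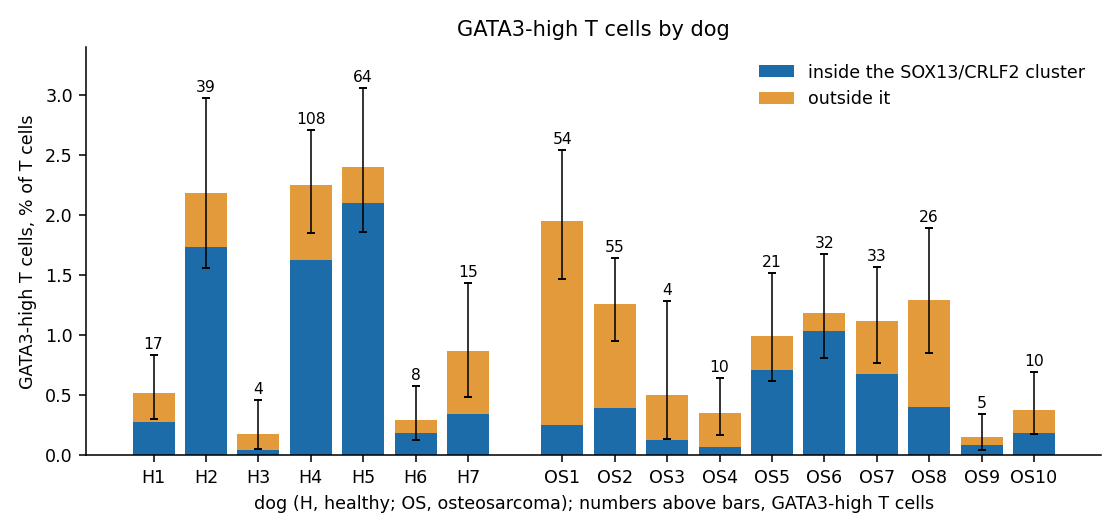
GATA3-high T cells as a percentage of T cells in each healthy dog (H1 to H7) and dog with OS (OS1 to OS10), with the number of cells above each bar. Blue, cells inside the cluster led by RHEX, PDE11A, CRLF2 and SOX13; orange, cells outside it; whiskers, 95% exact binomial interval of the whole bar. H2, H4 and H5 stand above 2%, mostly blue; OS1 reaches 1.95%, mostly orange.

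The split between the 2 kinds varied widely from dog to dog. The cluster held 78 of 108 cells in healthy dog 4, 56 of 64 in healthy dog 5, 31 of 39 in healthy dog 2 and 28 of 32 in OS dog 6. It held 7 of 54 cells in OS dog 1, 17 of 55 in OS dog 2 and 8 of 26 in OS dog 8. Over dogs with at least 10 GATA3-high T cells the share inside the cluster was 66.4% ± 19.5 (SD, n = 5) for the healthy group, against 45.5% ± 26.2 (SD, n = 8) for the OS group. The shift was -22.1 points (95% interval -56.6 to 10.0; exact Wilcoxon p = 0.134), and this test was chosen after the split had been seen. Cells inside the cluster made up 0.903% ± 0.878 (SD, n = 7) and 0.395% ± 0.322 (SD, n = 10) of T cells, with an exact Wilcoxon p = 0.475. Cells outside it made up 0.341% ± 0.197 (SD, n = 7) and 0.525% ± 0.501 (SD, n = 10), with an exact Wilcoxon p = 0.740.

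Gene levels within the GATA3-high T cells were then compared between dogs with OS and healthy dogs, on counts summed per dog in the dogs with at least 25 cells (healthy dogs 2, 4 and 5 against OS dogs 1, 2, 6, 7 and 8). Of 9439 genes, 0 (0%) passed an adjusted p of 0.01 and a log2 fold change of 0.58 in edgeR, whose smallest adjusted p was 0.349. An unadjusted p under 0.05 was reached by 537 genes (5.69%). DESeq2 passed 0 genes at the same thresholds, had 262 at an unadjusted p under 0.05, and gave 2 an adjusted p under 0.05, PDE11A and ENSCAFG00000046009. Without the old dogs edgeR again passed 0 (334 genes at an unadjusted p under 0.05). No gene of any list was therefore called with the filter of 10 counts. Without it CRLF2, ZBTB16, and the myeloid genes LYZ and S100A12 were called. The rule genes chose the cells, so nothing is read from their tests.

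The 5 genes with the smallest unadjusted p were PDE11A, POU2F2, AUTS2, S100A2 and ENSCAFG00000046009, which has no symbol in the gene table, and ANGPTL1 came next. PDE11A was at 718, 387 and 517 normalised CPM in healthy dogs 2, 4 and 5, and at 139, 172, 312, 177 and 126 in OS dogs 1, 2, 6, 7 and 8. All 5 dogs with OS lay below all 3 healthy dogs, with a log2 fold change of -1.56 (edgeR adjusted p = 0.349; DESeq2 adjusted p = 0.0110). The cells inside the cluster carried 1105 of its 1167 UMIs, and they were 72.2 to 87.5% of the cells in the 3 healthy dogs, against 7 of 54 cells in OS dog 1 and 28 of 32 in OS dog 6. The part of this share in the difference was not tested, for PDE11A or for the genes that follow. Among cells inside the cluster alone, PDE11A was at 1084, 567.7 and 580 CPM in healthy dogs 2, 4 and 5 and at 459, 304, 386 and 293 CPM in OS dogs 2, 5, 6 and 7. The groups did not overlap there either, and the log2 fold change was -1.002 (edgeR adjusted p = 0.678). PDE11A was picked by its small p, and few dogs separate easily. The share of all tested genes that separate the dogs in this way was not computed for either set of cells, so nothing is read from the separation.

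POU2F2, which encodes the lymphocyte transcription factor OCT2, was at 48.7 ± 8.15 normalised CPM (SD, n = 3) for the healthy group, against 11.6 ± 6.17 (SD, n = 5) for the OS group (edgeR adjusted p = 0.472). AUTS2, a nuclear regulator of transcription, was at 61.1 ± 12.1 (SD, n = 3) and 14.7 ± 8.96 (SD, n = 5; edgeR adjusted p = 0.581). S100A2, a calcium-binding protein, was at 10.8 ± 4.93 (SD, n = 3) and 58.2 ± 39.04 (SD, n = 5; edgeR adjusted p = 0.603). ANGPTL1, a secreted angiopoietin-like protein, was at 80.9 ± 14.1 (SD, n = 3) and 30.2 ± 11.2 (SD, n = 5; edgeR adjusted p = 0.603). ENSCAFG00000046009 was at 356 ± 113 (SD, n = 3) and 993 ± 358 (SD, n = 5; edgeR adjusted p = 0.603; DESeq2 adjusted p = 0.0203). None of these differences passed in edgeR with the filter of 10 counts. Without that filter edgeR passed 21 genes as higher and 21 as lower in OS, among them PDE11A (adjusted p = 2.13e-06), POU2F2 (0.0029), AUTS2 (0.00298), S100A2 (0.000298) and ENSCAFG00000046009, while ANGPTL1 did not pass (0.0189), so the call of these genes depends on the filter. With at least 10 cells per dog (5 healthy dogs and 8 with OS) the log2 fold changes were smaller in size, -1.15 for PDE11A, -0.97 for POU2F2, -0.33 for AUTS2, 0.87 for S100A2, 0.28 for ENSCAFG00000046009 and -0.85 for ANGPTL1. With a gate of at least 2 genes they were -0.31 for POU2F2 and -0.040 for AUTS2, and S100A2 turned to -0.33. The weakest log2 fold change of ANGPTL1 over all alternatives was -0.339. Inside the cluster alone the log2 fold change was -4.36 for AUTS2 (edgeR adjusted p = 0.106), -1.83 for POU2F2, -0.56 for ANGPTL1 and 0.59 for ENSCAFG00000046009, and S100A2 did not pass the filter there.

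Of the genes that set the cells apart from other T cells, CRLF2 was at 344, 490 and 448 normalised CPM in healthy dogs 2, 4 and 5 and at 90.5, 117, 350, 290 and 156 in OS dogs 1, 2, 6, 7 and 8 (log2 fold change -1.15, edgeR adjusted p = 0.755). OS dog 6 stood within the healthy range and the other 4 dogs with OS below it. GATA3 was at 611 ± 196 (SD, n = 3) and 580 ± 163 (SD, n = 5), given as a description since the rule required it. SOX13 and MAF had log2 fold changes of -0.71 and -0.34. Inside the cluster alone the log2 fold change was -0.31 for CRLF2, -0.11 for SOX13 and -0.013 for MAF. LYZ, with a log2 fold change of -3.08 (edgeR adjusted p = 0.751), rested on healthy dog 4, where it was at 890 normalised CPM against 47.7 and 12.6 in healthy dogs 2 and 5. With at least 10 cells per dog (OS dog 5 included) the log2 fold change was -0.0095.

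**Figure D5:**
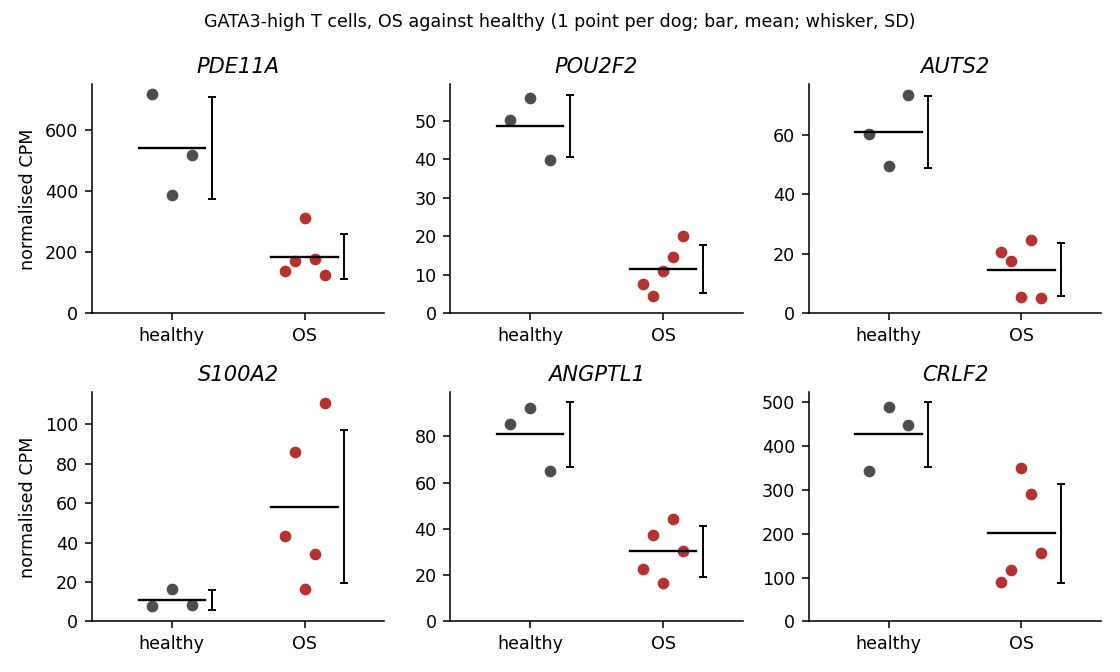
Normalised CPM (y axis, starting at 0) of PDE11A, POU2F2, AUTS2, S100A2, ANGPTL1 and CRLF2 in the GATA3-high T cells of 3 healthy dogs (grey) and 5 dogs with OS (red), 1 point per dog, with the mean as a bar and the SD as a whisker. In PDE11A, POU2F2, AUTS2 and ANGPTL1 all dogs with OS lie below all healthy dogs. These genes were picked by their small p, and the share of the 9439 tested genes that separate in this way was not computed. No gene passed after adjustment in edgeR with the filter of 10 counts.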

How the data were processed

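Counts of UMIs per gene and barcode were used as the authors deposited them, 1 matrix per dog and 17 in all. Per the submitters' processing notes, they were made with Cell Ranger 7.0.0 on CanFam3.1, from 3′ libraries (v3.1 chemistry). Reads were aligned in 2 modes by the study, counting introns or not. The mode behind the deposited matrices is not given in the sources used here. Intronic reads could raise the level of genes with long introns. Total UMIs per library were 7740230 to 56510134. Barcodes with 200 to 4500 genes, 500 to 20000 UMIs and under 10% mitochondrial UMIs were kept. T cells were clustered on 2000 variable genes, centred within dogs, using 30 principal components and 20 neighbors, by Leiden community detection (resolution 1.0). Doublets were scored with Scrublet in each dog, and the highest scores were called up to a number set by the count of barcodes. They were left out only as an alternative. Other T cells were those outside the gate. Genes entered the log2 ratio with at least 20 CPM pooled on either side. Genes entered edgeR 4.0.16 (TMM, quasi-likelihood test, Benjamini-Hochberg adjustment) with at least 10 counts. DESeq2, other filters, gates, depths and dogs served as alternatives. Scripts were tested on simulated data with an assumed dispersion of 0.1 and the dogs of the OS comparison. Of genes changed 4-fold 86.5% were recovered, of those changed 2-fold 1.5% and of those changed 8-fold 99.0%. The changed genes were drawn only from genes with many more counts than the filter of 10 required. Recovery of genes with fewer counts was not measured. The GATA3-high T cells, the gene lists and the genes named were chosen with earlier results of these data known. Named genes were the rule genes, examples from each list, the 12 highest and 8 lowest outside the lists among genes of 1 sign in every dog, and the 5 smallest p-values between groups. VSTM4 and the V segments were added after their values were seen. No reference sequence was used here, and some listed genes are not reported here. Dogs are separate animals, so p-values measure the spread between dogs.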

Additional observations from a re-analysis of the deposited data

Results flagged for a closer look

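In OS dog 1, GATA3-high T cells outside the cluster made up 1.70% of T cells, against 0.898% in the next highest of the 10 dogs with OS, a gap larger than Dixon's limit for 10 values. It was the single value set apart among 10 groups of shares. The median depth of these cells was 9765 UMIs in that dog. Among 47 genes whose log2 ratio to other T cells was examined in healthy dogs and dogs with OS separately, 4 of 94 groups held a value set apart, where chance gives about 1 in 20. These were CDH4 in healthy dog 1 (-0.012, at 0 CPM in its GATA3-high T cells), CD7 in OS dog 4 (-0.79), CCL5 in OS dog 2 (-1.23) and ITGB1 in OS dog 5 (-0.33).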

How the results depend on the processing

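No alternative made the share of GATA3-high T cells differ between the groups. The difference in means, -0.325 points of T cells and -0.223 of all kept cells, was, without 1 dog, -0.502 to -0.131 points of T cells (exact Wilcoxon p from 0.368 to 1.00) and -0.330 to -0.087 points of all kept cells (p from 0.492 to 1.00). It turned positive only for cells outside the cluster, 0.184 points of T cells and 0.106 points of all kept cells, an alternative chosen after seeing the data. Replicate numbers are shared between the groups but do not pair the dogs: over 5 shared numbers the correlation of deviations from the group means was -0.049 to 0.046, and no dog correlated best with its own number. The pairing of 7 numbers as a replicate block gave -0.191 points of T cells (exact sign-flip permutation p = 0.703) and -0.143 of all kept cells (p = 0.641).

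Genes changed between groups stayed at 0 in each direction when any 1 dog was left out (range 0 to 0). Without a low-count filter edgeR passed 21 higher and 21 lower in OS, among them PDE11A, POU2F2, AUTS2, S100A2, CRLF2, ZBTB16, LYZ, S100A12, ENSCAFG00000046009 and the rule genes PARD3B and IL17RB, from which nothing is read. With a replicate block and at least 10 cells per dog 5 higher and 1 lower (MMP1, LRMDA, ADGRL3, MMP9, PLBD1 and ENSCAFG00000030286), an alternative added because at least 25 cells left 1 shared number. A gate of at least 4 genes left no dog with OS with 25 cells and was run with at least 10, which passed 0. S100A2 turned to a log2 fold change of -0.33 with a gate of at least 2 genes. The cause of these shifts was not tested.

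Genes counted against other T cells, 60 higher and 47 lower, ranged from 58 to 78 and from 45 to 61 when 1 dog was left out. Higher and lower counts were 28 and 20 with a pseudocount of 50 CPM, 92 and 92 in cells of 3000 to 8000 UMIs, 92 and 90 with at least 25 cells per dog, 113 and 115 with at least 4 genes, 23 and 25 with at least 2 genes, 100 and 115 against CD8A-positive T cells, and 162 and 238 inside the cluster alone. Against GATA3-positive CD4-positive T cells 54 were higher and 22 lower. Over 50 named genes and 1294 recomputed ratios, 1 changed sign: BLK outside the cluster, at -0.040. A further 156 were marked as changed in size with the sign kept. The weakest values included -0.024 for GZMA, -0.063 for TSHZ2, -0.10 for KLRB1 and -0.17 for CD8A. Few cells per dog limit all values, and levels near 0 CPM rest on single UMIs.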
